A study of Homo sapiens with 9 samples.

Results

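The comparison described here sets 3 libraries of SUIT2 cells exposed to interferon beta for 24 h against 3 control libraries, 6 of the 9 libraries in the series. SUIT2 is an established human pancreatic cancer cell line, derived from a metastasis of a ductal adenocarcinoma. All cultures were of this unmodified line, plated at 500000 cells per well of a 6-well plate and grown for 24 h before the medium was exchanged. The treated medium held human interferon beta at 100 U/mL. The remaining 3 libraries, from cells exposed for 6 h at the same dose, entered the same fit, where they add to the estimate of spread, and are used here to place the 24 h levels against 6 h. The labels call the controls control treated, carry the protocol of the treated wells and give no time for them, so 24 h of interferon and time since the change of medium cannot be told apart. Whether the libraries of a group came from separate cultures is not stated either. The p-values therefore reflect the spread among these libraries alone, and that spread may be technical. All genes that passed a filter on low counts were members, 16964 of the 59609 in the table.

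Interferon beta binds the receptor chains IFNAR1 and IFNAR2, and the kinases JAK1 and TYK2 then phosphorylate STAT proteins, which join IRF9 and switch on antiviral genes within hours. Long exposure of tumour cells to type I interferon is also known for slowed growth, for raised antigen presentation and for changes in lipid metabolism. In pancreatic cancer cells the RAS-ERK pathway drives growth, AP-1 factors such as FOSL1, matrix proteases and the laminin that anchors epithelial cells. The groups of genes below follow these roles: antiviral genes briefly, then the cell cycle, lipids, matrix, adhesion and metabolism.

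Depth was 15101734 to 19632741 estimated counts for a control library and 25270387 to 40384407 for a 24 h library, so all treated libraries were deeper. The share of counts on ribosomal RNA genes was 1.69% to 1.74% in control and 1.02% to 1.16% at 24 h, and its part in the results was not tested. Epithelial markers were present, with KRT7, KRT8, KRT18, KRT19, EPCAM and CDH1 summing to 4834 to 4897 CPM (the usual depth-scaled count, computed here with TMM factors) in control and 5352 to 5477 CPM at 24 h. Of 14 leukocyte markers, which summed to 258 to 261 CPM in control and 405 to 426 CPM at 24 h, PTPRC, CD3E, MS4A1 and NKG7 were at 0 in both groups. LYZ rose from a mean of 227 to 331 CPM and CD68 from 32.9 to 85.6 CPM, and these 2 made up nearly all of the sum. The 5 fibroblast markers summed to 0.130 to 0.540 CPM in control and 0.597 to 0.741 CPM at 24 h with DCN at 0, and the 3 acinar markers to at most 0.116 CPM. The 3 endothelial markers summed to 1.43 to 2.40 CPM in control and 1.60 to 1.93 CPM at 24 h, and none was at 0 in both groups. The part of these markers in the results was not tested.

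By edgeR's quasi-likelihood test with a Benjamini-Hochberg adjusted p under 0.05, 4191 genes were higher at 24 h (24.7% of those tested) and 4284 were lower (25.3%). Most of these differences were small: 6010 of the 8475 were under 1.5-fold. At least 2-fold, 818 genes were higher (4.82%) and 291 were lower (1.72%). Of the first 85 and of the second 1 stood on the lists of antiviral, interferon signalling and antigen presentation genes. These lists hold only 62, 17 and 25 tested genes, which bounds that count. They do not hold every early induced gene: GBP4, LAMP3 and LGALS9, on none of them, were already up at 6 h. In the direct contrast of the times, 4520 genes were higher at 24 h than at 6 h (26.6%) and 5184 were lower (30.6%). The split depended on scaling. Of the genes called, 49.5% were higher with TMM factors, 50.8% with median-of-ratios factors and 64.1% with library size only. In the authors' normalized table it was 96.4%, with 8575 higher and 321 lower, and the median log2 fold change of all genes there was 0.37, against 0.0048 with TMM and 0.082 with library size only. Falls are therefore given relative to the bulk of genes, and for lists that fell the value in the normalized table stands beside the count. Values given as changes are log2 fold changes of 24 h over control from the TMM fit, with their standard error (SE), unless another contrast is named. In bulk RNA, fewer cells in a state and less transcript per cell cannot be told apart.

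**Figure D1:**
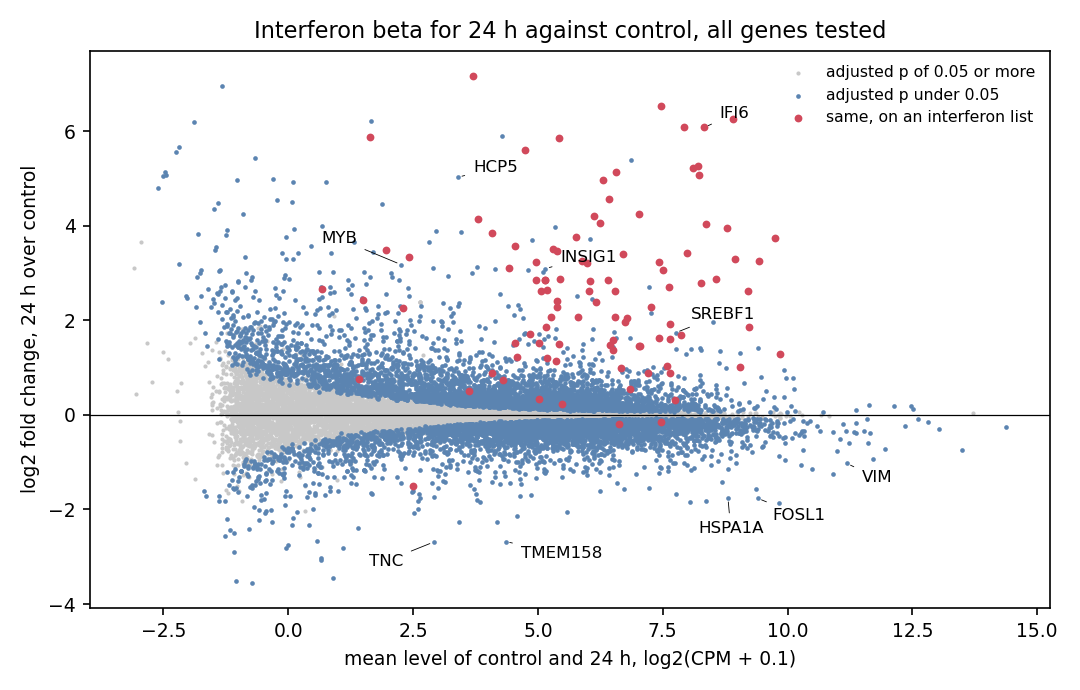
Each point is 1 of the 16964 genes tested, with the mean level of control and 24 h libraries on the x axis, as log2(CPM + 0.1), and the log2 fold change of 24 h over control on the y axis. Red points are genes on the 3 interferon lists that passed, blue points are other genes that passed at an adjusted p under 0.05, and grey points did not pass. Rises of more than 2-fold include many genes on no interferon list, among them INSIG1, HCP5 and MYB, and the larger falls include TNC, TMEM158 and FOSL1.

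The antiviral response was still high at 24 h, though mostly below its level at 6 h. All 62 tested antiviral genes rose, with a median log2 fold change of 3.24, and of these 54 were lower at 24 h than at 6 h and 8 were higher. IFI6, a mitochondrial protein that opposes apoptosis (chromosome 1, 27666064 to 27672199 on hg38), was among the 8. It stood at 9.77, 8.61 and 10.04 CPM in the 3 control libraries, 394, 386 and 320.2 CPM at 6 h and 633, 619 and 659 CPM at 24 h. Its 24 h libraries were all above its 6 h libraries, and the difference between the times was 0.80 (SE 0.059) with edgeR's adjusted p = 1.35e-08. The promoter of IFI6 is shown for the interferon response element, 2 copies of GAAA separated by any 2 bases, which 27 of 49 antiviral promoters hold in the 250 bases before the start (55.1%), against 2.37% of the 10630 promoters of tested genes in the RefSeq table (GRCh38.p14). The 120 bases at chr1:27672221-27672340 (minus strand) read 5′ to 3′ as follows, with matches in capitals on either strand.
IFI6: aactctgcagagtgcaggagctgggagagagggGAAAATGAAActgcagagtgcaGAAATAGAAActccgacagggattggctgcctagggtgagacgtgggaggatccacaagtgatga

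Interferon signalling factors were split. Of 17 tested, 9 rose, 3 fell and 5 did not pass, with a median of 0.22. STAT2, a factor of the type I response, stood at 22.6, 19.1 and 23.1 CPM in control, 325, 324 and 351 CPM at 6 h and 94.6, 87.2 and 88.6 CPM at 24 h, 2.07 (SE 0.063) against control. IRF7, which amplifies interferon production, rose by 3.46 (SE 0.068). SOCS3, a feedback inhibitor of JAK kinases, fell from 8.25 ± 1.56 to 2.91 ± 0.0955 CPM (mean ± SD, n = 3 per group), a log2 fold change of -1.49 (SE 0.13). IRF1, an early induced factor, stood at 113 CPM at 6 h and only 24.5 CPM at 24 h, against 14.9 CPM in control.

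Antigen presentation genes were all higher at 24 h, and many exceeded their 6 h level. All 25 tested rose, with a median of 2.05. In the contrast of the times 12 were higher at 24 h, 12 were lower and 1 did not pass. The class II accessory chains HLA-DMA and HLA-DMB, which load peptide on class II molecules, were higher than at 6 h. HLA-DMB stood at 23.7, 23.7 and 21.1 CPM in control, 23.8, 23.7 and 22.7 CPM at 6 h and 119.5, 122 and 119 CPM at 24 h. Control and 6 h libraries of HLA-DMB overlapped, and all 24 h libraries were about 5 times higher, a log2 fold change of 2.39 (SE 0.044) with edgeR's adjusted p = 9.85e-16. HLA-DMA rose by 2.07 (SE 0.061), of which 0.35 was present at 6 h; it overlaps BRD2 on the other strand, and whether the counting used strand is unknown. B2M, the light chain of class I, rose from 537 ± 4.26 to 1318 ± 26.6 CPM and exceeded its 6 h level by 0.29 (SE 0.023). Heavy-chain genes such as HLA-B share reads with close paralogs, and how the counting split these is not known.

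**Figure D2:**
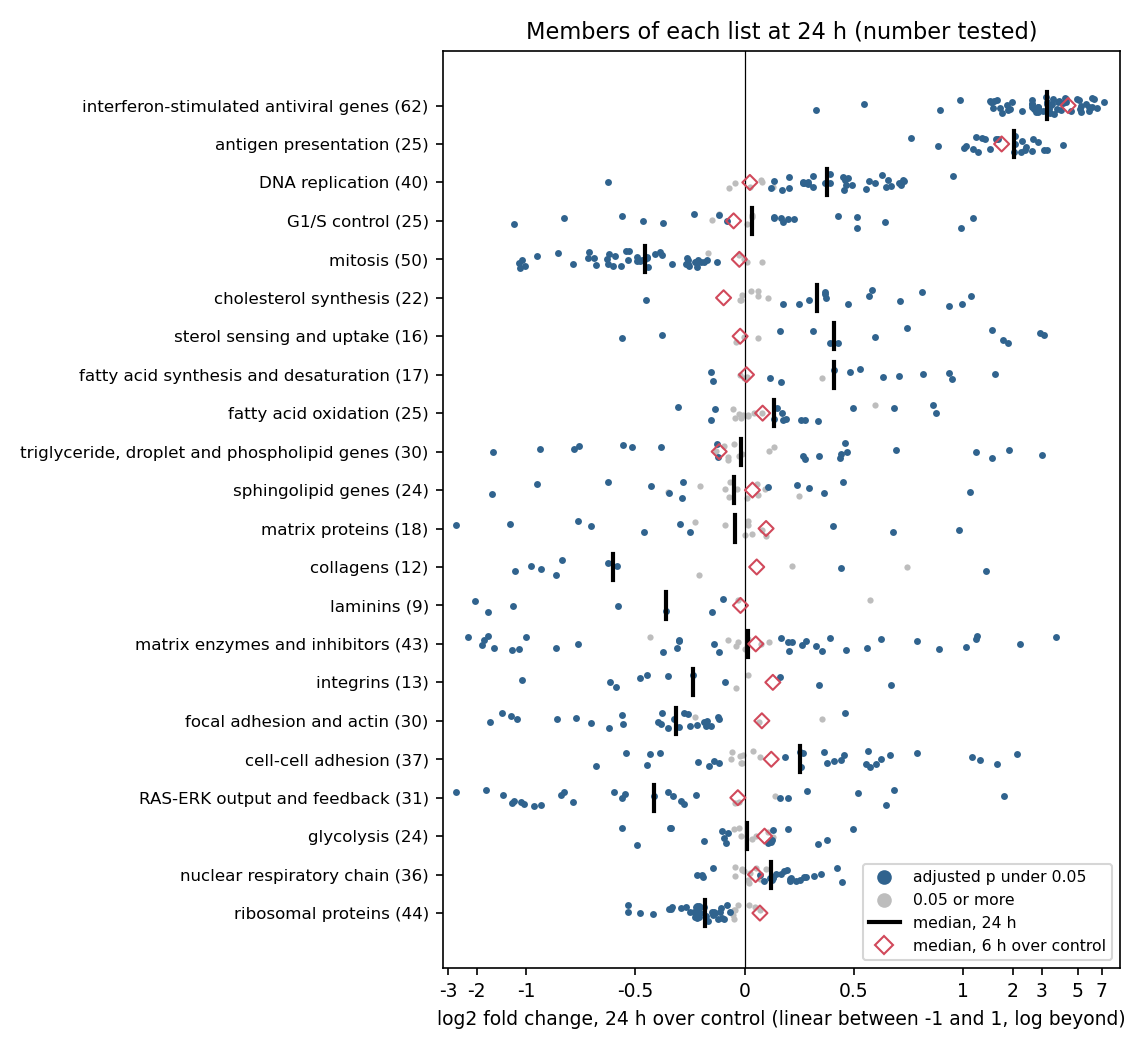
Each point is a tested member of the list named on the y axis, and the x axis gives the log2 fold change of 24 h over control, linear between -1 and 1 and logarithmic beyond. Blue points passed at an adjusted p under 0.05 and grey points did not, black bars are the lists' medians at 24 h, and red diamonds are the medians of 6 h over control, which share the control libraries. The medians stand at 0.38 for DNA replication, -0.45 for mitosis, 0.33 for cholesterol synthesis, -0.36 for laminins and -0.31 for focal adhesion and actin, the last 2 at 0.078 and 0.13 in the normalized table.

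The cell cycle genes parted by phase. Genes of DNA replication were higher at 24 h and genes of mitosis were lower. Of 40 tested replication genes 33 rose, 1 fell and 6 did not pass, with a median of 0.38, and 32 were also higher than at 6 h while 6 were lower. Of 50 tested mitosis genes 0 rose, 45 fell and 5 did not pass, with a median of -0.45, and 45 were lower than at 6 h while 1 was higher. In the normalized table, where all genes had a median of 0.37, the mitosis median was -0.015 with 6 lower and 4 higher, and the replication median was 0.80 with 37 higher and 0 lower. The count of mitosis genes called thus rests on scaling, whereas the gap between the 2 lists was present in both.

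The replicative helicase was among the genes that rose. MCM2, a helicase subunit, stood at 116, 113 and 111 CPM in control and 184, 184 and 188 CPM at 24 h, a rise of 0.71 (SE 0.031). MCM5 and MCM6, subunits of the same ring, rose by 0.72 (SE 0.032) and 0.72 (SE 0.037). PCNA, the sliding clamp of the polymerases (chromosome 20, 5114953 to 5126627), went from 69.5, 66.7 and 67.2 CPM to 113, 111 and 113 CPM. All 3 of its 24 h libraries were above the 9 libraries' other 6 values, the highest of which was at 6 h. PRIM1, the catalytic subunit of primase, had the largest rise of the list, from 27.1 ± 0.623 to 52.5 ± 0.172 CPM, or 0.95 (SE 0.047) with edgeR's adjusted p = 1.97e-10; it overlaps NACA, which is annotated on the same strand at a higher level. The licensing factors CDC6 and CDT1 rose by 0.49 and 0.39. GINS4, a subunit of the helicase's activator, was the single member that fell, at -0.63 (SE 0.042), and is named because its value stood apart. RRM2, the ribonucleotide reductase subunit that supplies deoxynucleotides, rose by 0.38 (SE 0.026).

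Mitotic regulators fell by up to about 2-fold. PLK1, the polo kinase of mitotic entry (chromosome 16, 23677656 to 23690368), stood at 342, 347 and 335 CPM in control, 326, 326 and 317 CPM at 6 h and 161, 159.7 and 169 CPM at 24 h. Its 6 h libraries lay slightly below the controls, and its 24 h libraries were at 47.9% of control, a log2 fold change of -1.06 (SE 0.031) with edgeR's adjusted p = 2.46e-13. CDC20, the activator of the anaphase-promoting complex, stood at 280.0, 279 and 282 CPM in control, 344, 358 and 332 CPM at 6 h and 137, 135 and 144 CPM at 24 h. It was therefore above control at 6 h, at 0.30 (SE 0.034), and below it at 24 h, at -1.02 (SE 0.034). CCNB1, the mitotic cyclin, fell (-0.85, SE 0.031), and CDC25B, the phosphatase that activates its kinase, also fell (-1.09, SE 0.03). KIF20A, a kinesin of cytokinesis, had the largest fall of the list, from 123 ± 0.835 to 57.04 ± 1.57 CPM. UBE2C, which builds the ubiquitin chains of mitotic exit, AURKA, a spindle-pole kinase, and MKI67, the proliferation marker, fell, at -0.95, -0.60 and -0.47. CDK1, the mitotic kinase itself, moved least of these, at -0.23 (SE 0.038), and stood at 0.21 in the normalized table.

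Promoters of both groups are shown because the 2 lists carry different elements. The cell cycle homology region (TTTGAA, either strand) occurs in 22 of 42 mitosis promoters (52.4%), in 0 of 33 replication promoters and in 8.28% of all 10630. The E2F motif (TTTCCCGC or TTTGGCGC, either strand) occurs in 11 of 33 replication promoters (33.3%), in 2 of 42 mitosis promoters (4.76%) and in 3.15% of all. Matches are descriptions of the letters before the start and not of binding. The windows are PLK1 at chr16:23678769-23678888 (plus strand) and CCNB2, a second mitotic cyclin (-0.45 at 24 h, named for its promoter), at chr15:59105026-59105145 (plus strand), each with the match in capitals starting 29 bases before the start. The others are PCNA at chr20:5126623-5126742 (minus strand) and MCM6 at chr2:135876470-135876589 (minus strand), with E2F matches in capitals. The start is the RefSeq one, and that of PLK1 lies inside the deposited bounds of the gene. The windows of CCNB2 and PCNA also reach into the deposited bounds of their genes. All are 120 bases from RefSeq, GRCh38.p14, printed 5′ to 3′ on the gene's strand.
PLK1: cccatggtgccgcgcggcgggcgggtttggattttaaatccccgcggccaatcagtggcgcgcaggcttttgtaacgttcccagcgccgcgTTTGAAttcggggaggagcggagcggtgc
CCNB2: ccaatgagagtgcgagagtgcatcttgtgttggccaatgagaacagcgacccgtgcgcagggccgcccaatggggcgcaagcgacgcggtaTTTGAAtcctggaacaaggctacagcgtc
PCNA: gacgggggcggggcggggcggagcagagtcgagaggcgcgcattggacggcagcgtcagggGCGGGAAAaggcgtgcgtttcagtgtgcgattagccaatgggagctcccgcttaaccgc
MCM6: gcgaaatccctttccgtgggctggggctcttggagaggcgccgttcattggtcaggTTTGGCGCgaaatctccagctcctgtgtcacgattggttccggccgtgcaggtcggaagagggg

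**Figure D3:**
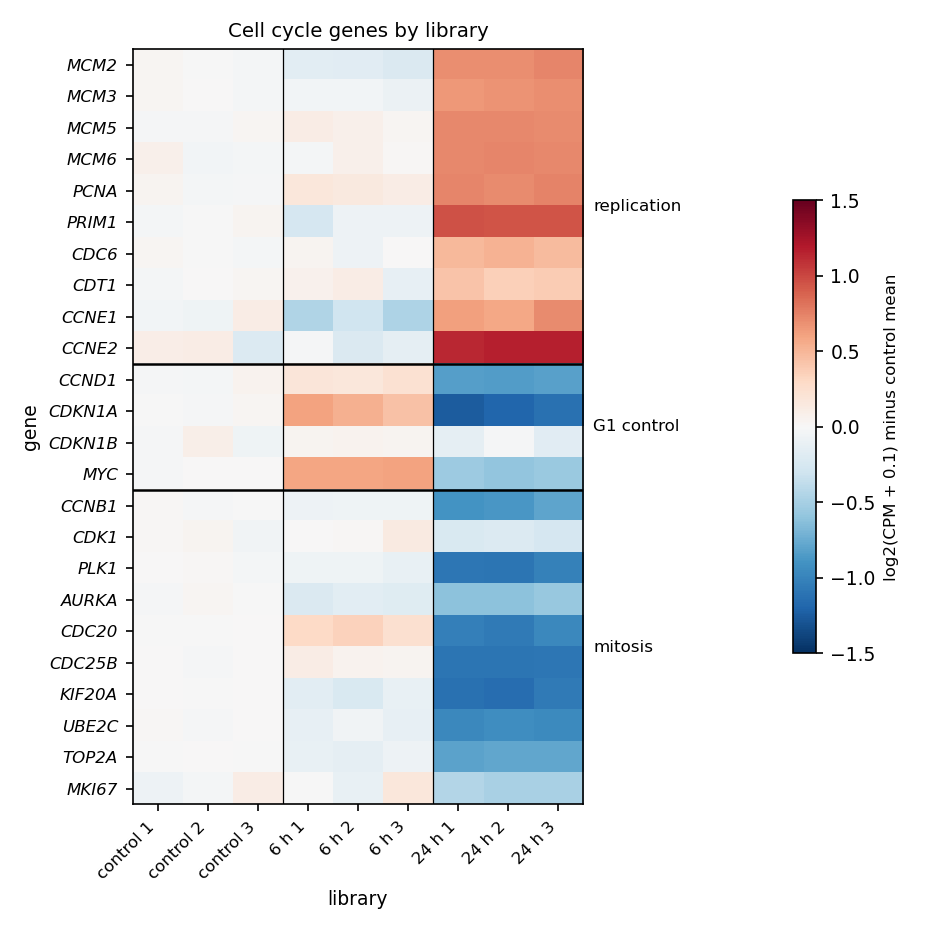
Rows are cell cycle genes in 3 blocks and columns are the 9 libraries. Color is log2(CPM + 0.1) minus the mean of the 3 control libraries, from -1.5 in blue to 1.5 in red. The replication block turns red and most of the mitosis block turns blue in the 24 h columns, and CDKN1A, MYC and CDC20 are red at 6 h and blue at 24 h. The mitosis fall is relative to the bulk of genes (list median -0.45, or -0.015 in the normalized table).

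Regulators of G1 and of entry into S phase moved in both directions. Of 25 tested 12 rose, 8 fell and 5 did not pass, and the median of 0.034 was close to that of all genes. CDKN1A, the cyclin kinase inhibitor p21 (chromosome 6, 36676460 to 36687338), stood at 71.7, 71.1 and 73.9 CPM in control, 109.5, 105 and 98.4 CPM at 6 h and 30.4, 31.7 and 33.1 CPM at 24 h. The 3 groups did not overlap, with 6 h highest and 24 h lowest, and the difference between the times was -1.71 (SE 0.045) with edgeR's adjusted p = 6.61e-14. MYC, a growth-promoting transcription factor, had the same order, with 187 ± 1.68, 284 ± 1.31 and 127 ± 2.53 CPM. CCND1, the cyclin D1 gene downstream of ERK, fell (-0.83, SE 0.029). The E cyclins rose, CCNE2 from 13.5, 13.6 and 10.95 CPM to 27.9, 28.4 and 28.4 CPM, a change of 1.14 (SE 0.072) and CCNE1 by 0.64 (SE 0.083). E2F2, an activator of S-phase genes, was below control at 6 h and above it at 24 h, with means of 8.62 CPM in control, 4.89 CPM at 6 h and 17.1 CPM at 24 h. Of 23 tested p53 targets 10 rose, 7 fell and 6 did not pass, with a median of 0.14. GDF15, a secreted stress cytokine, rose by 1.07, whereas ZMAT3 and CDKN1A fell, at -0.92 and -1.19. MDM2, a best-known member of that list, did not pass, at 0.11 (SE 0.046). CCNE2 overlaps INTS8, CCND1 overlaps LTO1 and KIF20A overlaps BRD8 and CDC23, each on the other strand.

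Genes of cholesterol and fatty acid synthesis were higher at 24 h, and those of cholesterol synthesis had not been at 6 h. The pathways are governed by the factors SREBF1 and SREBF2, which INSIG1 and SCAP hold in the endoplasmic reticulum while sterol is plentiful. Of 22 tested genes of cholesterol synthesis 14 rose, 1 fell and 7 did not pass, with a median of 0.33. At 6 h none of these 22 had been above control and 7 had been below. Of all 16964 genes tested, 2968 were above control at 6 h and 2608 were below. Of the 22, 19 were higher at 24 h than at 6 h while 2 were lower. Of 16 tested genes of sterol sensing and uptake 11 rose, 2 fell and 3 did not pass, with a median of 0.41. Fatty acid synthesis and desaturation numbered 11 higher, 2 lower and 4 not passed of 17, with a median of 0.41. These 3 medians were also above that of all genes in the normalized table, at 0.74, 0.75 and 0.72.

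INSIG1 had the largest rise of these 3 lists. INSIG1, which retains the SREBP-SCAP complex and is itself a target of SREBP (chromosome 7, 155297776 to 155310236), stood at 7.31, 7.95 and 6.85 CPM in control, 5.26, 5.73 and 3.63 CPM at 6 h and 61.1, 64.2 and 64.7 CPM at 24 h. Its 6 h libraries were below every control and its 24 h libraries were 8.53-fold above, a log2 fold change of 3.09 (SE 0.09) with edgeR's adjusted p = 2.59e-13. SREBF1, the factor of fatty acid synthesis, went from 103, 98.5 and 98.5 CPM to 335, 329.9 and 335 CPM, a rise of 1.74 (SE 0.04). SREBF2, the factor of cholesterol synthesis, rose by 0.74 (SE 0.034). STARD4, a cholesterol carrier, rose by 1.89 (SE 0.083), against 1.70 (SE 0.087) at 6 h.

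Among the enzymes of cholesterol synthesis IDI1 rose most. HMGCS1, which makes HMG-CoA, went from 27.4, 27.6 and 26.99 CPM to 41.7, 41.6 and 39.6 CPM, a rise of 0.58 (SE 0.046). IDI1, an isomerase of the isoprenoid branch, rose by 1.11 (SE 0.044), with all 3 of its 24 h libraries about 2-fold above the other 6. FDFT1, the squalene synthase, and MSMO1, a sterol demethylase, rose by 0.71 and 0.81. PMVK, the phosphomevalonate kinase, was the member that fell, at -0.45 (SE 0.052), and is named for that reason. Among fatty acid enzymes SCD, the main desaturase, went from 676, 668 and 643 CPM to 1286, 1289.8 and 1261 CPM, a rise of 0.95 (SE 0.024). ACACA, which makes malonyl-CoA, rose by 0.41 (SE 0.049), and its mitochondrial counterpart ACACB by 0.94 (SE 0.088). FADS1, a desaturase of polyunsaturated acids, rose by 0.63 (SE 0.04) and ELOVL6, an elongase, by 0.71 (SE 0.049), of which 0.59 was present at 6 h. SREBF1, FADS1 and NR1H3 overlap RAI1, FADS2 and ACP2 on the other strand, so reads in the shared stretches cannot be assigned.

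The promoters of INSIG1 and HMGCS1 are shown for the CCAAT box (either strand), the site of NF-Y, a partner of SREBP. It occurs in 13 of 17 cholesterol synthesis promoters (76.5%), in 6 of 13 of sterol sensing and uptake (46.2%) and in 35.3% of all. The box is not particular to sterol genes. It is also in 31 of 42 mitosis promoters (73.8%), a list that fell, and in 21 of 33 replication promoters (63.6%). The core CACCCCAC of a sterol regulatory element occurs in 0 of the 17 and in 2.20% of all, which says only that these letters are not in those windows. The windows are chr7:155297650-155297769 (plus strand) for INSIG1 and chr5:43313451-43313570 (minus strand) for HMGCS1, 120 bases each from RefSeq, GRCh38.p14, with matches in capitals; the HMGCS1 window overlaps the deposited start of the gene.
INSIG1: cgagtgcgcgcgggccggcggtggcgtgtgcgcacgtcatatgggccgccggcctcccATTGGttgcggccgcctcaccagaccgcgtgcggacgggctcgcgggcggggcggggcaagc
HMGCS1: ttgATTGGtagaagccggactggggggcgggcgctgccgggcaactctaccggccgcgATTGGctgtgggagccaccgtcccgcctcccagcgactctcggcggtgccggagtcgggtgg

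**Figure D4:**
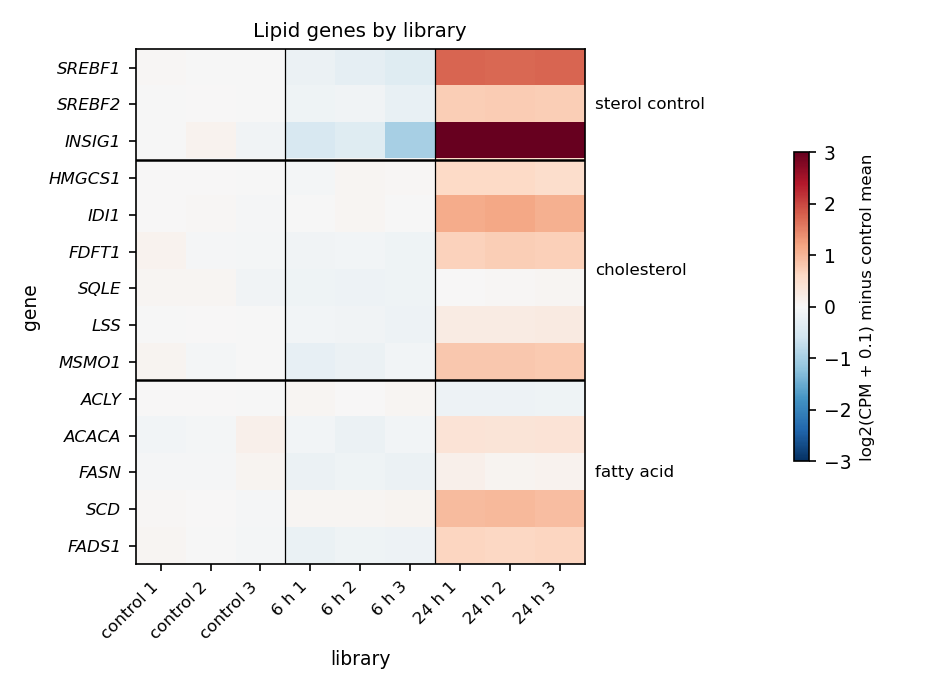
Rows are lipid genes in 3 blocks and columns are the 9 libraries. Color is log2(CPM + 0.1) minus the mean of the 3 control libraries, from -3 in blue to 3 in red, and values beyond that range have the end color. INSIG1 reaches the red end in all 24 h columns and is pale blue at 6 h, SREBF1 is the next deepest red at 24 h, and the enzymes are paler. The enzymes did not all rise. ACLY was slightly lower at 24 h, at -0.14 relative to the bulk of genes, and FASN rose by only 0.11.

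Other lipid pathways changed less evenly. Of 9 tested genes of cholesterol efflux and oxysterols 6 rose, 2 fell and 1 did not pass, with a median of 0.54. ABCA1, the exporter of cholesterol, went from 7.12 ± 0.175 CPM in control to 17.01 ± 1.02 at 6 h and 21.6 ± 1.36 at 24 h, and NR1H3, the LXR factor that controls it, rose by 0.999 (SE 0.065). PPARA and CREB3L3, factors of fasting metabolism, rose by 0.86 (SE 0.056) and 1.27 (SE 0.085). Of 25 tested genes of fatty acid oxidation 12 rose, 3 fell and 10 did not pass, with a median of 0.13. ACSL3 and ACADS rose by 0.88 and 0.68, whereas CPT1A, the gate of mitochondrial import, fell, at -0.30 (0.13 in the normalized table). Triglyceride, droplet and phospholipid genes numbered 12 higher, 9 lower and 9 not passed of 30, with a median of -0.019 that was 0.058 with library size only and 0.41 in the normalized table, where 16 were higher and 2 lower. PLAAT4, a phospholipase-like enzyme, rose by 3.01 (SE 0.083), against 2.99 (SE 0.085) at 6 h. LPIN1, a phosphatidate phosphatase, rose by 1.19 (SE 0.053), against 0.031 (SE 0.061) at 6 h, which did not pass. The acyltransferases GPAM and GPAT3 fell, at -0.76 and -0.94. Of 24 tested sphingolipid genes 6 rose, 7 fell and 11 did not pass, with a median of -0.051 that was 0.027 with library size only and 0.38 in the normalized table, where 14 were higher and 2 lower. Over all genes tested 24.7% were higher and 25.3% lower, so the sphingolipid counts were near the shares of all genes. CERK, the ceramide kinase, fell (-1.61, SE 0.036) and SGMS2, a sphingomyelin synthase, also fell (-0.95, SE 0.059).

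Of 9 tested laminin chains 0 rose, 7 fell and 2 did not pass, with a median of -0.36, which in the normalized table was 0.078 with 3 lower and 2 higher. Laminin-332, the anchor of epithelia to the basement membrane, includes the products of LAMA3 and LAMB3, and both were among the falls that stayed below 0 there. LAMB3 (chromosome 1, 209614870 to 209652426) stood at 38.01, 38.1 and 38.3 CPM in control, 30.1, 30.3 and 27.7 CPM at 6 h and 11.2, 11.3 and 12.2 CPM at 24 h. Its 24 h libraries were at 30.3% of control, a change of -1.72 (SE 0.056) with edgeR's adjusted p = 9.84e-13. LAMA3 stood at 89.3, 86.5 and 85.6 CPM and 40.04, 36.1 and 37.5 CPM, a change of -1.197 (SE 0.041). LAMA5, a chain of other basement membranes, fell (-0.58, SE 0.034).

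Of 12 tested collagens 2 rose, 7 fell and 3 did not pass, with a median of -0.60 (-0.16 in the normalized table, with 3 lower and 4 higher). COL6A1 and COL6A2, 2 chains of the same microfibril, fell, at -0.93 (SE 0.038) and -1.18 (SE 0.069). COL17A1, the collagen of hemidesmosomes, stood at 902 ± 11.2 CPM in control, 1316 ± 5.08 at 6 h and 601 ± 8.05 at 24 h, so it was above control at 6 h and below it at 24 h. The members that rose were COL27A1 (0.44, SE 0.11) and COL1A1, named as the other of the 2, with means of 0.224 CPM in control and 0.611 CPM at 24 h. The call of COL1A1 was lost without control library 1 or 3 or without 24 h library 1 or 2, with edgeR's adjusted p from 0.0534 to 0.0896. Of 18 tested matrix proteins 3 rose, 7 fell and 8 did not pass, with a median of -0.045 that was 0.032 with library size only and 0.19 in the normalized table, where 2 were lower and 7 higher. TNC, the tenascin of tumour stroma (chromosome 9, 115019575 to 115118258), stood at 12.5, 14.05 and 12.1 CPM in control, 12.7, 11.6 and 13.4 CPM at 6 h and 2.02, 1.85 and 2.09 CPM at 24 h, a 6.45-fold fall. THBS1, thrombospondin 1, fell (-1.26, SE 0.035). AGRN, a heparan sulfate proteoglycan, rose by 0.98 (SE 0.033), against 1.12 (SE 0.033) at 6 h.

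Matrix enzymes and their inhibitors numbered 19 higher, 16 lower and 8 not passed of 43, with a median of 0.013 (0.42 in the normalized table, with 24 higher and 8 lower). MMP1, the interstitial collagenase, stood at 975, 997 and 978 CPM in control, 1255, 1315 and 1317 CPM at 6 h and 327, 330.0 and 334 CPM at 24 h, and so was highest at 6 h and lowest at 24 h. PLAU, the urokinase, stood at 513, 505 and 527 CPM in control and 142, 146 and 150.4 CPM at 24 h, a change of -1.82 (SE 0.031), and PLAUR, its receptor, fell (-1.21, SE 0.067). HAS3, a hyaluronan synthase, fell (-1.85, SE 0.067). CTSS, a cathepsin that trims the class II invariant chain, rose by 2.23 (SE 0.062), against 2.11 (SE 0.065) at 6 h. HAS3 overlaps CHTF8 and DERPC, PLAU overlaps C10orf55 and LAMA5 overlaps ADRM1, each on the other strand.

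Integrin, focal adhesion and actin genes fell more often than they rose. Of 13 tested integrins 3 rose, 8 fell and 2 did not pass, with a median of -0.24 (0.20 in the normalized table, with 1 lower and 4 higher). ITGB4, the hemidesmosome chain that binds laminin-332, stood at 1636, 1647 and 1736 CPM in control, 1742, 1750.4 and 1702 CPM at 6 h and 811, 775 and 817 CPM at 24 h. Only the 24 h libraries stood apart, with -1.06 (SE 0.028) and edgeR's adjusted p = 6.92e-14. Its partner ITGA6 fell (-0.45, SE 0.033), and ITGA3, another laminin receptor, fell too (-0.48, SE 0.023). ITGA5, a fibronectin receptor, rose by 0.67 (SE 0.07). Of 30 tested focal adhesion and actin genes 1 rose, 26 fell and 3 did not pass, with a median of -0.31, and 29 were lower at 24 h than at 6 h; in the normalized table the median was 0.13 with 5 lower and 3 higher. The member that rose was CALD1, an actin-binding protein, at 0.46 (SE 0.16), named as the exception. Its call was lost without control library 1 or 2 or without 24 h library 1 or 2, with edgeR's adjusted p from 0.0771 to 0.112. FERMT1, a kindlin that activates integrins (chromosome 20, 6074845 to 6123031), stood at 322, 327 and 341 CPM in control and 105, 106 and 101 CPM at 24 h, 31.4% of control. CAV1, the caveola scaffold, fell (-1.41, SE 0.028), and FLNA, which links actin to membranes, fell too (-1.14, SE 0.025). TPM4, a tropomyosin, fell (-0.86, SE 0.029), and ACTB, an actin gene often used as a reference, fell (-0.72, SE 0.02) from 4962 ± 58.97 to 3018 ± 29.6 CPM. ITGB4 overlaps GALK1 on the other strand.

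Genes of cell-cell junctions rose more often than they fell. Of 37 tested 20 rose, 9 fell and 8 did not pass, with a median of 0.25. At 6 h 20 had already been above control, 6 below and 11 had not passed, with a median of 0.12. Of all 16964 genes, 2968 were above control at 6 h and 2608 below. In the contrast of the times, 13 of the 37 were higher at 24 h and 16 were lower. TJP3, a tight junction scaffold, stood at 9.29, 7.95 and 8.67 CPM in control, 5.65, 7.67 and 5.40 CPM at 6 h and 36.8, 36.7 and 38.5 CPM at 24 h. All 24 h libraries were about 4-fold above control, a rise of 2.12 (SE 0.089). CLDN7, a claudin, rose by 1.27 (SE 0.087), and CDH1, E-cadherin, from 17.3, 16.1 and 17.5 CPM to 25.2, 24.7 and 27.01 CPM, a change of 0.60 (SE 0.068). EPCAM, an epithelial adhesion molecule, rose by 0.57 (SE 0.031). JUP, plakoglobin, fell (-0.68, SE 0.044). Mesenchymal transition genes numbered 5 higher, 11 lower and 4 not passed of 20, with a median of -0.22 (0.15 in the normalized table, with 6 higher and 3 lower). Changes ranged from -1.68 to 0.65 over the list. VIM and SNAI2, given next, are both among the 11 that fell, and the 5 that rose are not named. VIM, the intermediate filament of mesenchymal cells, fell from 3133, 3136 and 3113 CPM to 1518, 1512 and 1576 CPM, a change of -1.03 (SE 0.02). SNAI2, a repressor of E-cadherin, stood at 21.9, 20.6 and 18.8 CPM in control, 13.6, 14.4 and 16.00 CPM at 6 h and 6.53, 6.67 and 6.03 CPM at 24 h, lower at each time. TJP3 overlaps APBA3, CLDN7 overlaps ELP5 and VIM overlaps VIM-AS1, each on the other strand.

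Ductal and pancreatic identity genes numbered 14 higher, 8 lower and 6 not passed of 28, with a median of 0.094. The transcription factors FOXA1 and ELF3, both active in ductal epithelium, rose by 1.496 (SE 0.055) and 0.99 (SE 0.042); FOXA1 had risen by 6 h, whereas ELF3 stood at 123 CPM in control, 85.4 CPM at 6 h and 244 CPM at 24 h. KRT19, the ductal keratin, rose by 0.54 (SE 0.024), and KRT7 fell (-0.76, SE 0.033). S100P, a calcium-binding protein of pancreatic tumours, stood at 9.65, 8.96 and 8.998 CPM in control and 2.93, 2.82 and 2.88 CPM at 24 h, a change of -1.67 (SE 0.11).

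RAS-ERK output and feedback genes fell more often than they rose. Of 31 tested 7 rose, 21 fell and 3 did not pass, with a median of -0.42; in the normalized table the median was 0.013 with 11 lower and 10 higher. FOSL1, an AP-1 subunit stabilised by ERK (chromosome 11, 65892049 to 65900574), stood at 1028, 1053 and 1054 CPM in control, 1028, 1059 and 1003 CPM at 6 h and 315, 301 and 307 CPM at 24 h. Control and 6 h overlapped, and 24 h was at 29.4% of control, with -1.76 (SE 0.028) and edgeR's adjusted p = 1.69e-16. TMEM158, induced by activated RAS, stood at 35.8, 32.1 and 37.7 CPM in control and 5.55, 5.93 and 5.02 CPM at 24 h, a 6.40-fold fall. The phosphatases DUSP4 and DUSP5, which act back on ERK, fell, at -1.18 (SE 0.034) and -1.08 (SE 0.053) and are named as rows of the plot of matrix genes. Not all feedback genes fell: DUSP6, another ERK phosphatase, rose by 0.64 (SE 0.042), and ETV4, an ETS factor, by 0.52 (SE 0.046). EGR1, an early gene of many stimuli, rose from 4.80, 4.83 and 5.02 CPM to 18.1, 16.8 and 15.3 CPM, with 6 h at 4.67, 4.67 and 4.91 CPM.

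Windows before the RefSeq start of LAMA3 and PLAUR are shown for the AP-1 motif (TGANTCA, either strand). Few promoters hold it in the 250 bases before the start: 1 of 8 laminin promoters (12.5%), 4 of 30 of matrix enzymes (13.3%) and 3.79% of all. These shares are not particular to lists that fell. Fatty acid synthesis and desaturation, which rose, had 2 of 15 (13.3%). Ductal and pancreatic identity had 3 of 15 (20%), and integrins had 0 of 10. Both windows lie inside the deposited bounds of their genes, that of LAMA3 (chromosome 18, 23689443 to 23956223) far from either end, so it precedes an internal start and not the first base of the deposited gene. LAMA3 has 2 matches and PLAUR 1 in those bases. The windows of 120 bases, chr18:23872894-23873013 (plus strand) for LAMA3 and chr19:43670293-43670412 (minus strand) for PLAUR, are from RefSeq, GRCh38.p14, with matches in capitals.
LAMA3: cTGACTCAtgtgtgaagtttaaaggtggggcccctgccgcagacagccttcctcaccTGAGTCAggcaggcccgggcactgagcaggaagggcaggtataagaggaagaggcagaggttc
PLAUR: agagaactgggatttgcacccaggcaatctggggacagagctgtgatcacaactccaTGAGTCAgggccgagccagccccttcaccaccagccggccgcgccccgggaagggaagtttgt

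**Figure D5:**
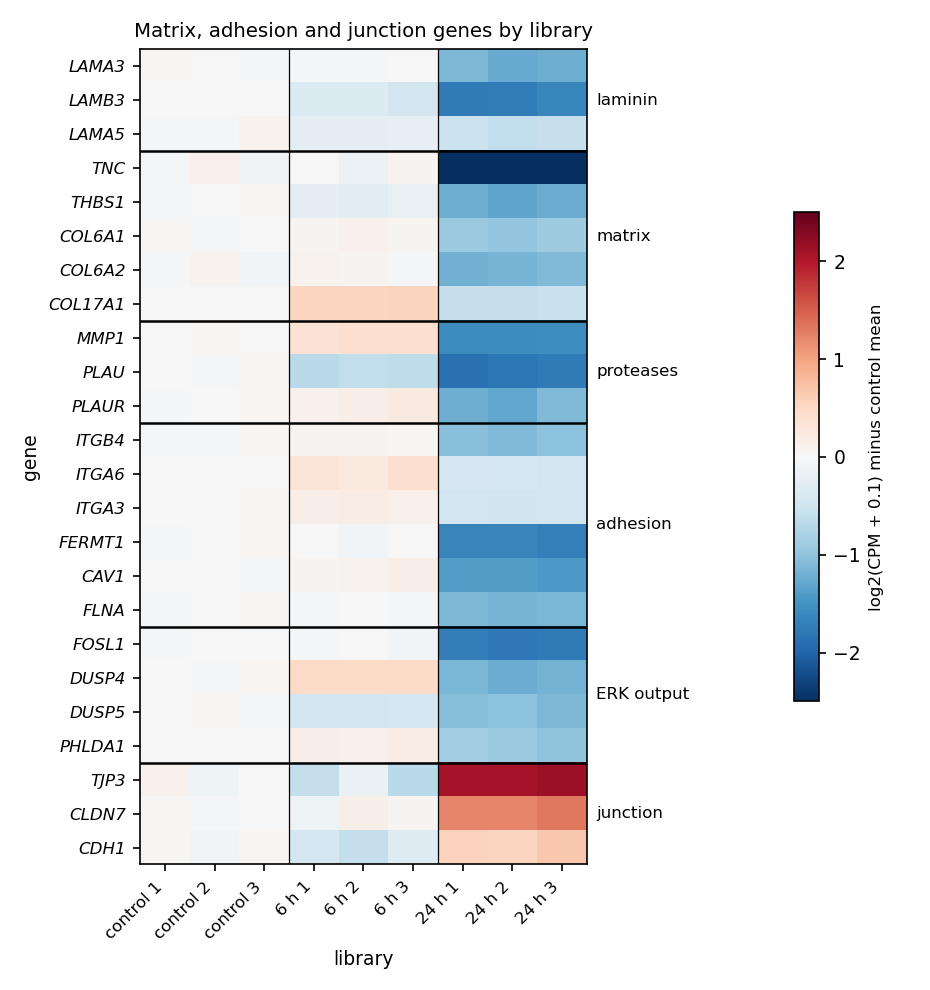
Rows are genes of laminins, other matrix, proteases, adhesion, ERK output and cell junctions, and columns are the 9 libraries. Color is log2(CPM + 0.1) minus the mean of the 3 control libraries, from -2.5 in blue to 2.5 in red, and TNC lies beyond the blue end at 24 h. The 24 h columns are blue for all rows but the 3 junction genes, while the 6 h columns are pale, with MMP1, COL17A1 and DUSP4 slightly red. The rows are a selection, so this split does not describe the whole lists. Members that went the other way are not shown, among them AGRN, COL27A1, CTSS, ITGA5, DUSP6, ETV4 and EGR1, which rose. The junction gene JUP, which fell, is not shown either.

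Energy metabolism changed by small amounts. Of 24 tested glycolysis genes 8 rose, 9 fell and 7 did not pass, with a median of 0.0091 (0.42 in the normalized table, with 14 higher and 0 lower). HK2, the inducible hexokinase, stood at 66.00, 61.7 and 62.4 CPM in control, 144, 138 and 147 CPM at 6 h and 44.9, 44.5 and 45.8 CPM at 24 h. It was highest at 6 h in all 3 libraries and below control in all 3 at 24 h (-0.49, SE 0.04). PFKP, a phosphofructokinase, fell (-0.56, SE 0.028), and LDHA, lactate dehydrogenase, fell (-0.34, SE 0.022) and stood at 0.098 in the normalized table. SLC16A3, a lactate exporter, rose by 0.38 (SE 0.061). Of 25 tested TCA cycle genes 11 rose, 6 fell and 8 did not pass, with a median of 0.079; IDH1, the cytosolic isocitrate dehydrogenase that yields NADPH, went from 36.1, 37.7 and 32.9 CPM to 83.4, 84.1 and 82.04 CPM, a change of 1.22 (SE 0.045), and ACO1, the cytosolic aconitase that also regulates iron, fell (-0.95, SE 0.044). Nuclear genes of the respiratory chain numbered 21 higher, 4 lower and 11 not passed of 36, with a median of 0.12, and the rises did not exceed that of COX7B, a cytochrome oxidase subunit, at 0.45 (SE 0.043). Among the 13 genes of the mitochondrial genome were 4 rises, 7 falls and 2 that did not pass, and their median was -0.095 (-0.017 with library size only and 0.34 in the normalized table, with 6 higher and 0 lower). MT-ND3, a subunit of complex I, rose by 0.38 (SE 0.04), and MT-CO1, of cytochrome oxidase, fell (-0.26, SE 0.019) and stood at 0.18 in the normalized table. Of 19 tested hypoxia genes 3 rose, 5 fell and 11 did not pass, with a median of -0.050 that was 0.028 with library size only and 0.35 in the normalized table, where 8 were higher and 0 lower. The hypoxia counts were near or below the shares over all genes tested, 24.7% higher and 25.3% lower. CA12, a carbonic anhydrase, rose by 0.88 (SE 0.037).

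Amino acid, redox and nucleotide genes held some larger single changes. Serine, folate-cycle and stress-response genes numbered 14 higher, 8 lower and 9 not passed of 31, with a median of 0.14. PHGDH, the first enzyme of serine synthesis, rose by 0.79 (SE 0.045). Amino acid transporters were among the falls. SLC7A11, the cystine importer, stood at 33.99, 34.03 and 33.97 CPM in control, 24.3, 22.4 and 26.6 CPM at 6 h and 14.8, 15.7 and 13.7 CPM at 24 h, and SLC7A5 and its partner SLC3A2 fell, at -0.86 (SE 0.033) and -0.69 (SE 0.036). STC2, a secreted stress glycoprotein, stood at 31.6 ± 1.57 CPM in control, 46.7 ± 0.957 at 6 h and 11.7 ± 0.389 at 24 h. Of 27 tested NRF2 and glutathione genes 4 rose, 14 fell and 9 did not pass, with a median of -0.084 (0.35 in the normalized table, with 13 higher and 1 lower). GPX2, the gut-type glutathione peroxidase, was among the 4 that rose, with 6.05, 5.94 and 6.06 CPM in control, 9.41, 8.27 and 8.25 CPM at 6 h and 52.9, 50.1 and 46.8 CPM at 24 h, a change of 3.05 (SE 0.074). GCLM and SRXN1, targets of NRF2, fell, at -0.52 and -0.52. Thymidine and deoxynucleotide genes numbered 9 higher, 11 lower and 10 not passed of 30, with a median of -0.047 that was 0.031 with library size only and 0.39 in the normalized table, where 16 were higher and 0 lower. TYMP, which degrades thymidine, was still 10.95-fold above control at 24 h, at 77.1 ± 2.16 CPM, and differed from its 6 h level by -1.02 (SE 0.037). TYMP overlaps SCO2 and ODF3B on the same strand, and ODF3B, which rose by 3.45, is among the largest rises outside the interferon lists. CDA, cytidine deaminase, fell (-0.83, SE 0.058), and SLC29A1, a nucleoside transporter, fell (-0.34, SE 0.051) and stood at 0.091 in the normalized table.

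Ribosomal protein genes were slightly lower. Of 44 tested 0 rose, 36 fell and 8 did not pass, with a median of -0.18; in the normalized table the median was 0.26 with 0 lower and 8 higher. RPLP0, a protein of the ribosomal stalk, stood at 1112, 1107 and 1128 CPM in control and 788, 783 and 826 CPM at 24 h (-0.48, SE 0.028). Ribosomal protein genes have many processed pseudogenes, and how reads shared with those were counted is not known. Of 26 housekeeping genes 6 rose, 13 fell and 7 did not pass, with a median of -0.081, or 0.36 in the normalized table, where 11 were higher and 0 lower. Lysosome genes numbered 16 higher, 3 lower and 11 not passed of 30, with a median of 0.14, and LIPA, the acid lipase, rose by 1.497 (SE 0.046); LIPA overlaps the induced IFIT1, IFIT2 and IFIT3 on the other strand. Of 13 tested complement genes 7 rose, 1 fell and 5 did not pass, with a median of 0.74. CD59, a membrane inhibitor, fell (-0.86, SE 0.023).

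Outside the 3 interferon lists, the 15 largest rises at 24 h held both genes that were already up at 6 h and late genes. LAMP3, LGALS9, SLC15A3, GBP4, HSH2D and TRANK1 were already up at 6 h; LAMP3, a lysosomal membrane protein, stood at 0.645 CPM in control, 91.5 CPM at 6 h and 38.1 CPM at 24 h. ETV7, an ETS repressor, stood at 0.0, 0.101 and 0.130 CPM in control, 62.2, 63.5 and 61.9 CPM at 6 h and 6.16, 5.74 and 6.19 CPM at 24 h. Its 3 control libraries held 0, 2 and 2 counts, so its fitted change of 6.21 depends on the prior count. HCP5, a noncoding RNA of the HLA region (chromosome 6, 31463170 to 31478937), was late, at 0.719, 0.453 and 0.717 CPM in control, 1.17, 1.06 and 1.13 CPM at 6 h and 19.8, 19.9 and 21.1 CPM at 24 h. MYB, a transcription factor of progenitor cells, stood at 0.719, 0.957 and 1.11 CPM in control, 0.714, 0.924 and 0.784 CPM at 6 h and 8.71, 8.59 and 7.95 CPM at 24 h. All 24 h libraries of both were above the other 6, with log2 fold changes of 5.03 (SE 0.13) and 3.18 (SE 0.16). AP001972.5, an unclassified transcript inside ARRB1 on the same strand, spread from 6.22 to 17.0 CPM at 24 h, and ARRB1 itself went from means of 250.2 to 538 CPM. The change of AP001972.5, 3.66 (SE 0.44), was 4.59 without control library 2. AC015688.4 lies on LGALS9 and IFITM3P2 is a pseudogene of a near-identical induced family, so their rises (4.45 and 3.13) are uncertain.

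The 15 largest falls held TNC, TMEM158, HAS3, PLAU and FOSL1, described above. TNFRSF6B, a decoy receptor for death ligands, stood at 26.5, 30.4 and 33.1 CPM in control and 5.74, 5.07 and 7.57 CPM at 24 h, a change of -2.27 (SE 0.14), and it overlaps a read-through gene that carries its name. ANO1, a calcium-activated chloride channel, stood at 18.8, 16.8 and 17.02 CPM in control, 15.2, 16.8 and 17.95 CPM at 6 h and 3.60, 3.56 and 3.72 CPM at 24 h. Its groups at control and 6 h overlapped, and 24 h was 4.82-fold lower than control. OLFML2A and BMP6, a secreted matrix protein and a growth factor, fell, at -2.13 (SE 0.072) and -2.07 (SE 0.12). AHNAK, a giant scaffold protein, fell (-1.86, SE 0.09), and its 3 controls spread from 1298 to 1663 CPM. CORO2B, CPM (the gene of carboxypeptidase M) and PRDM8 fell, at -1.99, -1.80 and -1.83; CPM overlaps MDM2 and BMP6 overlaps TXNDC5 on the other strand.

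Several genes with the largest differences between the times lay on opposite sides of control. This order was not rare. Of all 16964 genes tested, 1244 were called on opposite sides of control at the 2 times, with the times differing. Of these, 583 were higher and 661 were lower at 24 h. HSPA1A, an inducible chaperone of the HSP70 family (chromosome 6, 31815543 to 31817947), stood at 650.3, 695 and 726 CPM in control, 1365, 1402 and 1384 CPM at 6 h and 202, 207 and 206 CPM at 24 h. It was about 2-fold above control at 6 h and at 29.7% of control at 24 h, a difference between the times of -2.76 (SE 0.035) with edgeR's adjusted p = 3.13e-17. HSPA1B encodes an almost identical protein, so the split of reads between both genes is uncertain, and it gave -2.79 (SE 0.03). SPOCD1 and PLEKHN1, less studied genes, had the same order, with 0.68 and 1.199 at 6 h and -1.56 and -0.86 at 24 h. MLKL, the effector of necroptosis, stood at 31.02 ± 1.07 CPM in control, 110.1 ± 4.05 at 6 h and 26.9 ± 0.162 at 24 h; its small fall against control, -0.21 (SE 0.047), was 0.23 in the normalized table. In the other direction SLC40A1, the iron exporter ferroportin, stood at 2.40, 2.42 and 1.89 CPM in control, 1.04, 0.508 and 1.02 CPM at 6 h and 6.83, 6.48 and 6.52 CPM at 24 h. RAB26, a vesicle GTPase, and CHST4, a sulfotransferase, were below control at 6 h (2.14 and 1.99 at 24 h, -1.02 and -0.65 at 6 h).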

How the data were processed

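The 9 libraries of SUIT2 RNA were sequenced on a HiSeq 3000 and made with Illumina protocols, per the labels. The submitters' processing notes name STAR 2.7.8a, Partek and the build hg38. Neither strand setting nor annotation release is recorded in these sources. The gene table deposited by the authors holds estimated counts, 22.0% of them not whole. They had been taken as whole counts when the tests were planned, and so were rounded first. The second table deposited by the authors holds a normalized signal whose scaling is not stated. Gene positions are the deposited ones, whose end lies 1 base beyond GENCODE v29 for 81.5% of shared symbols.

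Genes passing edgeR's filterByExpr (minimum count 10, minimum total 15) were fitted with edgeR 4.0.16 in R 4.3.3 over all 9 libraries in 3 groups, with TMM factors, the quasi-likelihood test and Benjamini-Hochberg adjustment over the 16964 genes. The SE is the size of the log2 fold change over the root of F. With 6 residual degrees of freedom the biological coefficient of variation was 0.0392. The smallest library, 15101664 rounded counts, limits low genes. No library repeated another: chi-square values between replicates averaged 1.6 to 5.7 per gene. The normalized signal deposited by the authors was tested with limma 3.58.1 as log2(value + 1). Alternatives used DESeq2 1.42.0, limma-voom, other scalings, filters and thresholds, thinning and leaving out libraries.

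The 38 gene lists (1017 genes, 913 tested) and the members were chosen with earlier results of these data known. Named genes had at least 5 CPM in the higher group unless a list is best known for them. They are the 15 largest rises and falls at 24 h whose groups did not overlap (rises outside the 3 interferon lists), up to 5 largest changes and up to 5 best-known members of each list, and the 10 largest rises and falls beyond 6 h. Some members chosen by this rule are not reported here. CCNB2, DUSP4, DUSP5, GINS4, PMVK, CALD1, COL1A1, HLA-DMA, ACTG1 and the genes under other observations were chosen after their values were seen. So were the overlapping partners that the rule had not chosen. Motifs were searched in RefSeq promoters (GRCh38.p14).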

Additional observations from a re-analysis of the deposited data

Results flagged for a closer look

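Among the genes named, those listed here passed the test on one side of control at 6 h and on the other at 24 h, each by at least 1.5-fold, and the difference between the times, tested directly, also passed. Both changes are against the same 3 control libraries. Without the 1.5-fold limit, 1244 of all 16964 genes tested met these conditions. Lower than control at 6 h and higher at 24 h were NR1H4, with a difference of 3.84 between the times, INSIG1 with 3.76, RAB26 with 3.16, SLC40A1 with 2.93, CREB3L3 with 2.74, CHST4 with 2.63 and E2F2 with 1.81. CREB3L3, a liver and intestine factor of lipid metabolism, stood at 7.55, 7.70 and 8.54 CPM in control, 2.79, 2.59 and 3.08 CPM at 6 h and 20.3, 17.5 and 19.4 CPM at 24 h. NR1H4 stood at 1.001 CPM in control, so its fold rests on few counts. Higher than control at 6 h and lower at 24 h were HSPA1B, with a difference of -2.79, HSPA1A with -2.76, SPOCD1 with -2.24, PLEKHN1 with -2.06 and TUBB3 with -1.81. The reads of HSPA1A and HSPA1B cannot be told apart over much of their length.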

How the results depend on the processing

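Scaling had the largest effect on counts of genes. When the normalized table was used, 8575 genes were higher and 321 lower at 24 h, and with library size only 5500 and 3078. Against 6 h, library size only gave 8229 higher and 2475 lower. Every other alternative was within 1.5 times of the count reported: higher at 24 h ranged from 3196 at an adjusted p under 0.01 to 4610 without a filter on low counts, and lower from 3348 to 4559. DESeq2 gave 3534 higher and 3550 lower, and thinning to the smallest library 3850 and 3876. Leaving out 1 library at a time gave 3705 to 3858 higher and 3792 to 3894 lower, and against 6 h 4037 to 4268 higher and 4810 to 5085 lower. With the replicate number as a block, 4020 genes were higher and 4113 lower, and against 6 h 4336 and 5057. Same-numbered libraries correlated at -0.059 to 0.021 in their deviations, and differently numbered ones at -0.028 to 0.071. No pairing showed in these values, but they cannot exclude it, and the labels do not state it.

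Of the genes named, 27 lost their call against control under at least 1 alternative, 25 of them in the normalized table, where the median of all genes is 0.37, and CALD1 and COL1A1 in others. Against 6 h, 11 lost their call: CALD1, CDK1, COL27A1, CTSS, ELOVL6, JUP, LGALS9, MT1M, SLC29A1, SRXN1 and STARD4. FADS2 and MDM2, best-known members of the fatty acid synthesis and p53 target lists, are also overlapping partners of named genes. They did not pass against control but passed under 5 and 10 alternatives, respectively. Against 6 h, FOXA1 and PLAAT4 did so under 5 and 1. In the normalized table CDK1 stood at 0.21, CPT1A at 0.13, KRT18 at 0.42, LDHA at 0.098, MLKL at 0.23, MT-CO1 at 0.18 and SLC29A1 at 0.091, all below 0 with TMM; KRT18, which did not pass, was 0.054 with library size only. Against 6 h, AC015688.4, AGRN and LIPA were at 0.045, 0.079 and 0.17 with library size only. PLAAT4 against 6 h, which did not pass, ranged from -0.015 to 0.038 when 1 library was left out. The causes were not tested. Depth limits genes under about 1 CPM, such as ETV7, NR1H4 and MYB in control.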

Other observations

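The genes in this section were picked after their values were seen, so their tests describe them and support nothing further. The tubulin genes picked had lower levels at 24 h than in control. TUBB6, a beta tubulin, stood at 118, 119 and 118 CPM in control, 117, 116 and 113 CPM at 6 h and 54.96, 52.1 and 54.9 CPM at 24 h. TUBA1C, an alpha tubulin, had a change of -0.95 (SE 0.025), and TUBB2A one of -0.92 (SE 0.061). TUBB3, the neuronal form, stood above control at 6 h (0.61) and below it at 24 h (-1.203). Tubulin genes have near-identical copies and pseudogenes, and how shared reads were counted is not known. The cytoskeletal genes ACTG1, a nonmuscle actin, and PLEC, a linker of intermediate filaments, had changes of -0.94 (SE 0.021) and -1.26 (SE 0.035).

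HSPA8, the constitutive HSP70, stood at 3742, 3792 and 3761 CPM in control, 4702, 4945 and 5006 CPM at 6 h and 2435, 2534 and 2496 CPM at 24 h. DNAJB1 and BAG3, cofactors of HSP70, had changes of -0.77 (SE 0.029) and -0.70 (SE 0.041). HSP90B1, the HSP90 of the endoplasmic reticulum, rose from 516, 506 and 531 CPM to 895, 903 and 904 CPM, with 6 h between them. Of the metallothioneins, which bind zinc and copper, MT2A stood at 18.1 CPM in control, 145 CPM at 6 h and 63.8 CPM at 24 h, and MT1E and MT1M had changes of 1.57 (SE 0.094) and 2.59 (SE 0.23). Metallothionein genes are close copies of each other, with the same limit on counting.

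Late rises included some epithelial surface and junction genes. CD24, a mucin-like surface glycoprotein, stood at 378, 377 and 356 CPM in control, 331, 328 and 332 CPM at 6 h and 1019, 1012 and 937 CPM at 24 h. ST14, the protease matriptase, had a change of 1.76 (SE 0.038), CGN, the tight junction protein cingulin, one of 1.21 (SE 0.049), and ERBB3, a growth factor receptor, one of 1.18 (SE 0.037). NR1H4, the bile acid receptor FXR, stood at 0.959, 0.806 and 1.24 CPM in control, 0.0649, 0.416 and 0.378 CPM at 6 h and 4.83, 4.89 and 4.21 CPM at 24 h. MUC5AC, a gel-forming mucin, fell from 2.63 to 0.303 CPM. Matrix proteases did not move as a class: MMP13, a collagenase, stood at 0.353 CPM in control, 11.3 CPM at 6 h and 4.42 CPM at 24 h, whereas MMP10, a stromelysin, went from 1.15 to 0.239 CPM.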
